A study of Arabidopsis thaliana with 6 samples.

Results

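A set of 10 type I MADS-box genes of the Arabidopsis thaliana endosperm was followed in siliques, the fruits around the young seeds. They are AGL62, PHE1, PHE2, AGL36, AGL28, AGL40, AGL80, AGL61, AGL23 and AGL35. They were chosen by locus from a list of endosperm genes, with earlier results of these data known. All 10 were found among the 27779 gene rows of the deposited table. RNA-seq libraries came from whole siliques of WT plants and of the mutant agc1-4, 3 libraries per genotype, all taken 3 days after pollination. The labels give the genotype as WT or agc1-4 and name the data columns Col for WT and sr for agc1-4, without describing the lesion or explaining those column names. Whether the 3 libraries of each genotype were grown and harvested separately is also not stated, so a p-value here speaks of the spread between libraries, and that spread may be technical.

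MADS-box genes encode DNA-binding transcription factors, and the type I class is best known from the female gametophyte and the seed. Its proteins bind DNA as dimers that typically pair a member of the Mα clade (here AGL62, AGL40, AGL28, AGL23 and AGL61) with one of the Mγ clade (here PHE1, PHE2, AGL36, AGL35 and AGL80). In the young seed AGL62 holds the endosperm in its syncytial phase, and a Polycomb complex of the endosperm, FIS-PRC2, represses PHE1. A silique also holds seed coats, embryos and fruit wall, so a lower share of endosperm cells and less RNA per endosperm cell cannot be told apart in these libraries.

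Several of these genes are close copies, so the coding starts of the pairs that share sequence are shown first. They come from RefSeq annotation of assembly TAIR10.1, read 5′ to 3′ from the start codon over coding bases 1 to 90. Capitals mark the bases at which the members of a pair differ. PHE1 lies on the minus strand and PHE2 on the plus strand of chromosome 1, and they differ at 13 of these 90 bases.
PHE1: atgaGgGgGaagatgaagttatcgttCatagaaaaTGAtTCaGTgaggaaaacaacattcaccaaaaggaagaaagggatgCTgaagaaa
PHE2: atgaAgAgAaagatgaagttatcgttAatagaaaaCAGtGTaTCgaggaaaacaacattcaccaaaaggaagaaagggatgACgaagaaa
AGL36, on the plus strand of chromosome 5, and AGL90, a type I gene outside the 10 on the minus strand of that chromosome, differ at 5 of the 90.
AGL36: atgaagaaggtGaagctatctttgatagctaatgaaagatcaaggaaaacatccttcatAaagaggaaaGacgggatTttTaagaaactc
AGL90: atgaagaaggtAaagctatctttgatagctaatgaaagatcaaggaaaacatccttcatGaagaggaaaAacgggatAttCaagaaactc

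Over whole coding sequences PHE1 and PHE2 were identical at 88.7% of 825 aligned bases, and AGL36 and AGL90 at 96.3% of 963. AGL28 and AGL23, the next closest pair among the 10, were identical at 82.7%. Of the 50-base windows of the PHE2 transcript, 8.07% also occur in another annotated transcript, against 6.89% for PHE1 and 12.1% for AGL36. The closest copies by this measure were PHE1, PHE2 and AGL90 in turn, and the other 7 genes shared no such window. The 3 genes with shared windows therefore carry an uncertainty in how reads were divided. Of the 60 estimated counts of the 10 genes, 0 were fractional, while 4.32% to 4.86% of rows in each library were. Whole counts alone do not show how shared reads were placed. The read length was not given in the sources used here. Each of the 10 genes has 1 annotated transcript, and none overlaps another annotated gene. Of the 10, 6 have 1 exon and 4 have 2, while 20.8% of protein-coding genes have 1.

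Total counts per library ranged from 7973366 to 11812934. The leading principal component separated the genotypes, and WT replicate 3 lay apart on the next. AGC1-4, taken as AT5G40030 from background knowledge, was lower in every agc1-4 library. The WT libraries held 10, 39 and 16 counts of it, against 2, 7 and 1 for the mutant (log2 fold change -2.66 ± 0.54, SE, edgeR adjusted p = 0.000983).

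In WT siliques the 10 genes spanned from above 18 FPKM, a level per gene length and library size, down to the limit of detection. PHE1 (19.2 ± 1.73 FPKM, SD, n = 3) and AGL40 (18.5 ± 0.127) were the highest, and their ranges overlapped. AGL36 (13.8 ± 2.96) and AGL28 (11.8 ± 0.312) followed, again with overlapping ranges. AGL62, AGL35 and PHE2 formed a middle group, at 8.21 ± 1.06, 7.70 ± 2.75 and 5.97 ± 0.511 FPKM, in which each gene overlapped the next. AGL23 (2.44 ± 0.475) and AGL80 (2.13 ± 0.401) were low. In agc1-4 the order differed: AGL40 stood above PHE1 in 3 of 3 libraries, and AGL62 stood at rank 7 instead of 5, with AGL35 and PHE2 each above it in 3 of 3.

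**Figure D1:**
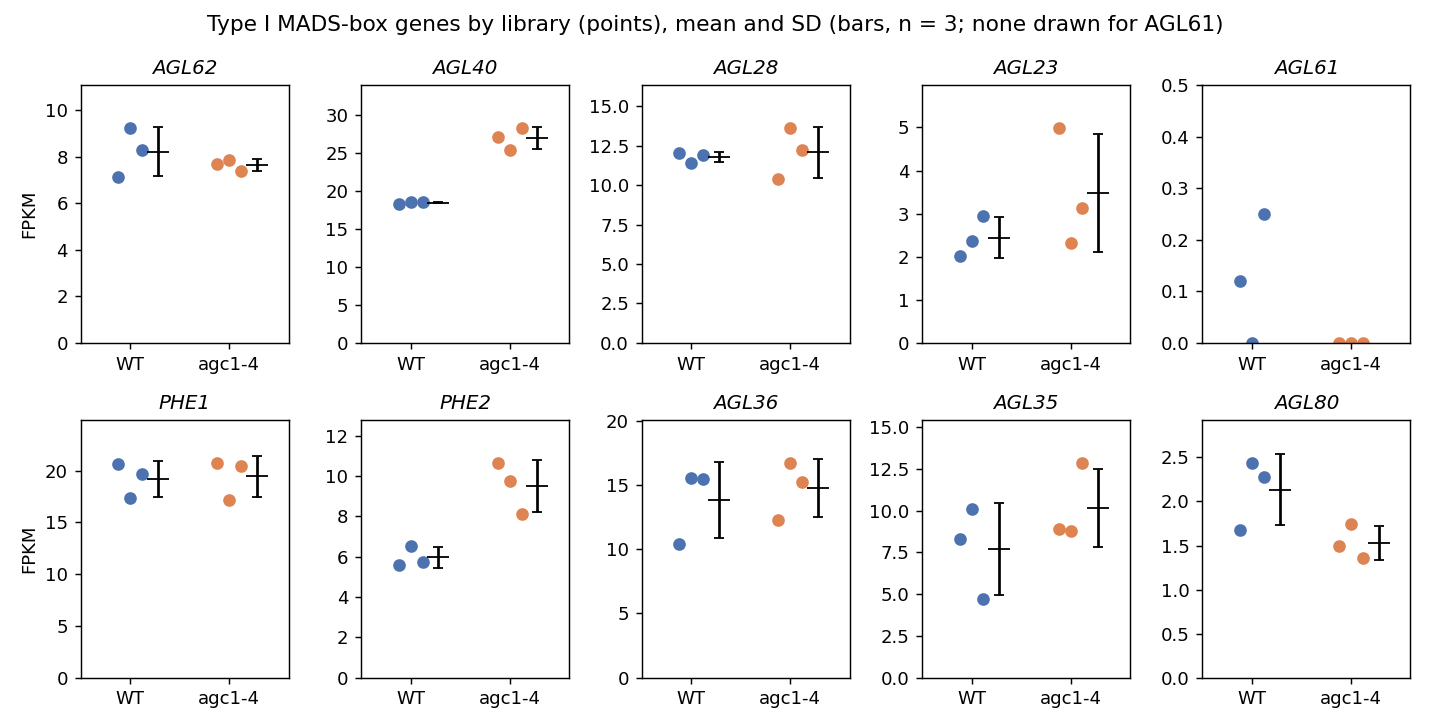
FPKM of the 10 type I MADS-box genes in each library (points), with the mean and SD of 3 libraries per genotype (bars, none drawn for AGL61). AGL40 and PHE2 lie higher in all 3 agc1-4 libraries than in any WT library, while the genotypes overlap for the other 8.

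AGL40 and PHE2 were higher in agc1-4, and no gene of the set was called lower. Of the 10 genes, 9 had enough counts to be tested. Among these 9, 2 were called higher by edgeR at a Benjamini-Hochberg adjusted p under 0.05, where 6.55% of the 18828 genes tested were called higher. None was called lower, where 7.07% of genes tested were. At an unadjusted p under 0.05, edgeR had the same 2 higher and 0 lower, where 12.9% and 13.4% of genes tested were. DESeq2 called AGL40 higher and 0 lower, where 3.74% and 3.84% of all its genes were called. The limma fit on log2(FPKM + 1) called AGL40 and PHE2 higher and 0 lower, where 5.58% and 4.71% were called. The median log2 fold change of the 9 was 0.07, against 0.00 over all genes tested. The FPKM ranges of WT and agc1-4 were apart for 2 of these 9, against 29.5% of genes tested.

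AGL40 (AT4G36590), an Mα gene, had 18.31, 18.55 and 18.50 FPKM in WT replicates 1 to 3 and 27.08, 25.39 and 28.26 in agc1-4 replicates 1 to 3. All agc1-4 libraries lay above all WT libraries, and the WT values lay close together. The log2 fold change was 0.54 ± 0.10 (SE, 1.46-fold, edgeR adjusted p = 0.00038), from 524 counts in WT and 784 in agc1-4. It stayed between 0.51 and 0.58 in the 6 fits that left out 1 library.

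PHE2 (AT1G65300), the paralog of PHE1 on the same chromosome, had 5.6, 6.55 and 5.75 FPKM in WT and 10.66, 9.77 and 8.10 in agc1-4. The genotypes did not overlap, and agc1-4 replicate 1 was the highest. The log2 fold change was 0.67 ± 0.18 (SE, 1.6-fold, edgeR adjusted p = 0.0092). The call was lost without agc1-4 replicate 1 (log2 fold change 0.58, adjusted p = 0.0751) and in DESeq2 (adjusted p = 0.0567).

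PHE1 (AT1G65330), an imprinted gene expressed from the paternal allele, did not share this difference. It had 20.69, 17.31 and 19.66 FPKM in WT and 20.77, 17.19 and 20.44 in agc1-4, so the ranges nearly coincided. Its log2 fold change was 0.03, with a 95% interval from -0.20 to 0.26 (edgeR adjusted p = 0.916). The ratio of PHE2 to PHE1 FPKM, which does not depend on library size, was 0.271, 0.378 and 0.292 in WT and 0.513, 0.568 and 0.396 in agc1-4. Every agc1-4 ratio exceeded every WT ratio, with means of 0.314 ± 0.0570 and 0.493 ± 0.0879 (SD, n = 3; exact two-sided permutation p = 0.1, the smallest that 3 against 3 can give). PHE2 was already known to be higher and PHE1 flat, so this p-value is not separate evidence. With the counts of both genes summed, the pair had a log2 fold change of 0.19 and was not called (adjusted p = 0.199).

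AGL62 (AT5G60440), whose loss makes the endosperm cellularize too early, was among the genes that were not called. It had 7.11, 9.23 and 8.30 FPKM in WT and 7.70, 7.86 and 7.36 in agc1-4. The agc1-4 values fell inside the WT range. The log2 fold change was -0.11 (95% interval -0.36 to 0.14, edgeR adjusted p = 0.615). The ratio of AGL40 to AGL62 FPKM was 2.58, 2.01 and 2.23 in WT and 3.52, 3.23 and 3.84 in agc1-4. It was higher in all 3 agc1-4 libraries (means 2.27 ± 0.285 and 3.53 ± 0.305, SD, n = 3; exact two-sided permutation p = 0.1, the smallest possible). Both ratios, this one and PHE2 to PHE1, were chosen after the values of single genes were known. Their p-values are therefore not separate evidence.

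AGL36 (AT5G26650), an imprinted gene expressed from the maternal allele, had 10.40, 15.58 and 15.47 FPKM in WT and 12.28, 16.75 and 15.23 in agc1-4. Replicate 1 was the lowest in both genotypes. Its log2 fold change was 0.07 (95% interval -0.23 to 0.38, edgeR adjusted p = 0.798). AGL90, its close copy, was not called either (log2 fold change 0.19, edgeR adjusted p = 0.57). AGL28 (AT1G01530), known to promote flowering when overexpressed, had 12.01, 11.42 and 11.89 FPKM in WT and 10.39, 13.62 and 12.24 in agc1-4. The WT values fell inside the agc1-4 range (log2 fold change 0.03, 95% interval -0.29 to 0.35, edgeR adjusted p = 0.933).

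AGL35 and AGL23 had wide spreads that left the comparison undecided. AGL35 (AT5G26630) had 8.33, 10.07 and 4.69 FPKM in WT and 8.89, 8.77 and 12.87 in agc1-4, with WT replicate 3 the lowest and agc1-4 replicate 3 the highest. Its log2 fold change of 0.35 (95% interval -0.11 to 0.82, edgeR adjusted p = 0.342) dropped to 0.11 when WT replicate 3 was left out and to 0.17 when agc1-4 replicate 3 was, and stood at 0.61 without WT replicate 2. AGL23 (AT1G65360), which acts in the female gametophyte and in embryo development, had 2.01, 2.36 and 2.95 FPKM in WT and 4.99, 2.32 and 3.12 in agc1-4. Only agc1-4 replicate 1 stood well above the rest. Its log2 fold change of 0.55 (95% interval -0.12 to 1.21, edgeR adjusted p = 0.304) was 0.15 without that library.

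AGL80 and AGL61, which act together in the central cell before it becomes the endosperm, were the lowest of the 10. AGL80 (AT5G48670) had 1.68, 2.44 and 2.28 FPKM in WT and 1.49, 1.74 and 1.36 in agc1-4, so 1 agc1-4 value lay above the lowest WT value. Its log2 fold change was -0.49 (95% interval -1.11 to 0.14, edgeR adjusted p = 0.332). AGL61 (AT2G24840) had 1, 0 and 2 counts in WT and 0 in each agc1-4 library, and was not tested. A count of 0 allows up to 3 counts, so a difference in AGL61 was not detectable at this depth. Egg cell and synergid markers were also near 0: of 6, only EC1.4 passed the filter on low counts, at 3.80 to 7.41 FPKM.

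**Figure D2:**
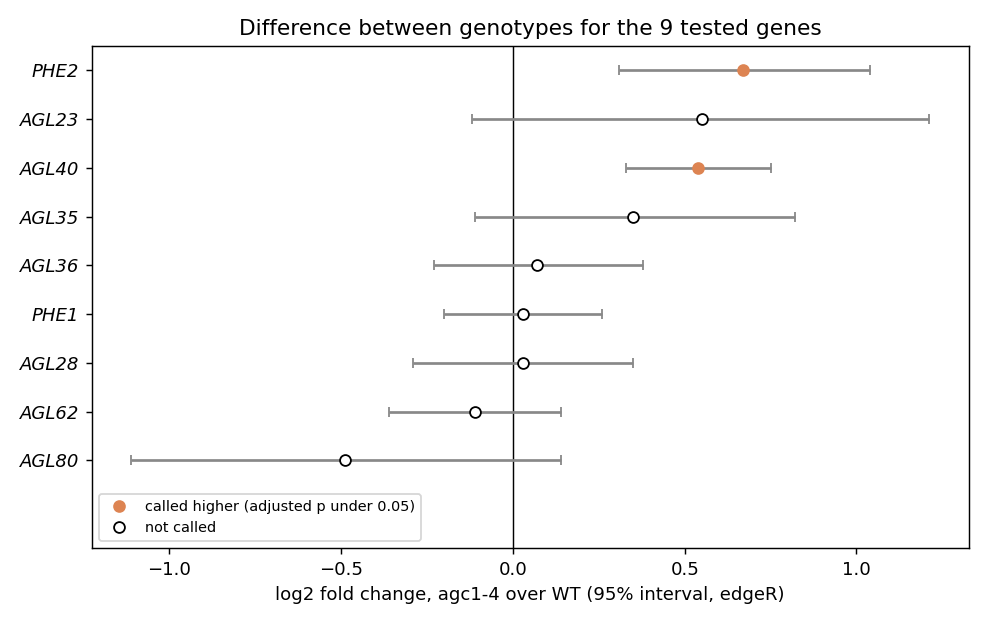
Log2 fold change (agc1-4 over WT, edgeR) of the 9 tested genes with 95% intervals. The intervals of AGL40 and PHE2 lie above 0, from 0.33 and 0.31 upwards, and those of the other 7 include 0.

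Summed over the 10 genes, expression was 86.3, 93.5 and 89.7 FPKM in WT and 104, 103 and 109 in agc1-4. AGL40 and PHE2 together rose from 24.4 ± 0.613 to 36.4 ± 1.29 FPKM (SD, n = 3), which made up 12 of the 15.7 FPKM by which the mean sums differed. The sum of the other 8 genes ranged from 62.4 to 68.4 FPKM in WT and from 66.5 to 72.6 in agc1-4, and these ranges overlapped. AGL40 and PHE2 were set apart after their calls were known, so this split is not separate evidence about the other 8.

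Some other endosperm genes were higher in agc1-4, among them MPC, CKX2 and ZOU, and the 10 genes were set against a list of such genes. The reference was a list of 17 endosperm genes outside the MADS family. It was drawn up with earlier results of these libraries known, and its direction is not independent evidence. Of its 16 tested genes 7 were called higher and 0 lower, where 6.55% and 7.07% of all genes tested were, and the list had a median log2 fold change of 0.42 and a range from -0.36 for MEA to 1.24 for ZOU. At an unadjusted p under 0.05 edgeR had 8 higher and 1 lower, MEA, where 12.9% and 13.4% of all genes tested were. DESeq2 and limma called 0 lower, where 3.84% and 4.71% of their genes were. The summed level of the list was 184 to 189 FPKM in WT and 263 to 286 in agc1-4, of which the imprinted gene MPC and the cytokinin oxidase gene CKX2 held 32.9% and 22.5% in WT.

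Against that sum, the share of AGL40 overlapped between genotypes, while PHE1, AGL28 and AGL62 had smaller shares in every agc1-4 library. The sum rests largely on MPC and CKX2, both on the list with their difference already known. AGL40 equalled 9.93 ± 0.125% of the reference sum in WT and 9.85 ± 0.197% in agc1-4 (SD, n = 3). AGL62 equalled 3.86%, 5% and 4.40% in WT and 2.85%, 2.99% and 2.57% in agc1-4. PHE1 equalled 9.38% to 11.2% in WT and 6.53% to 7.70% in agc1-4, and AGL28 6.19% to 6.53% and 3.85% to 5.17%. For these 3 genes the genotypes did not overlap, each with an exact two-sided permutation p of 0.1, the smallest possible. The list was drawn up with its rise known, so a smaller share for a gene with a flat level was fixed in advance. These p-values are therefore not read as a result about the 3 genes. The shares of PHE2 and AGL36 overlapped between genotypes. A 3 against 3 permutation cannot pass a threshold of 0.05 in either direction, so overlap does not show that a share stayed the same. With library size taken from this list, 0 of the 9 tested genes were called higher and 5 lower, where 1.28% and 79.7% of all genes tested were called, so a lower share on this scale does not set a gene apart from the rest of the silique.

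**Figure D3:**
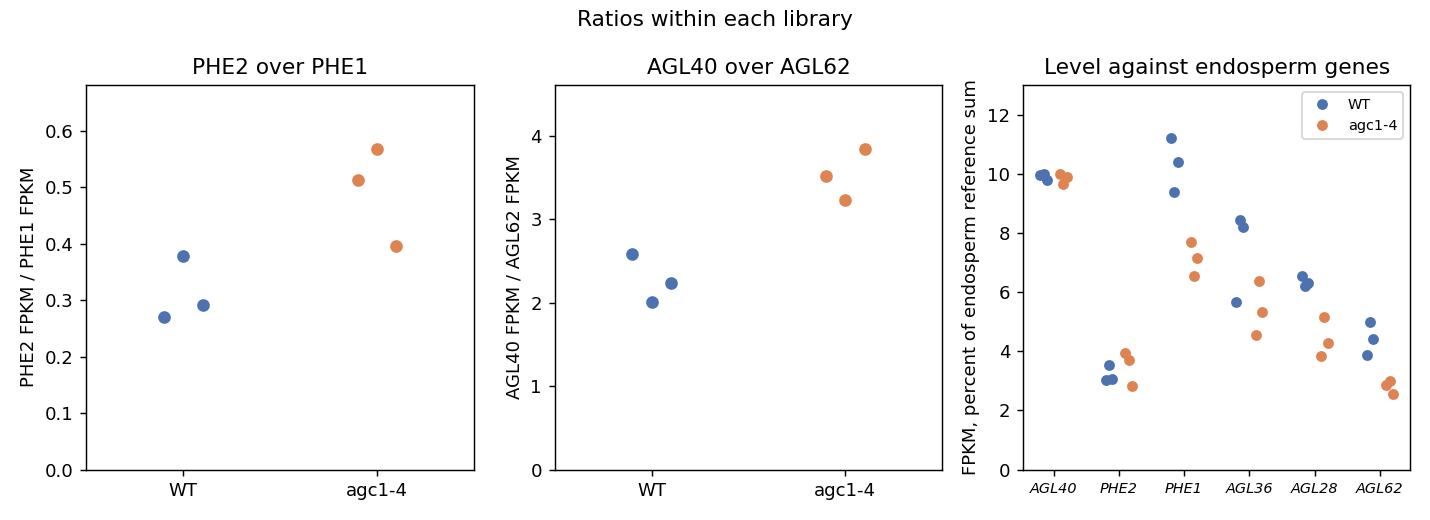
Ratios of FPKM within each library (points; 3 libraries per genotype). PHE2 over PHE1 and AGL40 over AGL62 are higher in every agc1-4 library, at 0.396 to 0.568 and 3.23 to 3.84. The panel on the right gives each gene as a percent of the summed FPKM of the 17 endosperm reference genes, where AGL40 overlaps between genotypes and AGL62 does not.

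Among markers of other parts of the seed and fruit, the embryo sum stood apart between genotypes and the other sums overlapped. The summed FPKM of 7 embryo markers was 5.74 to 7.39 in WT and 16.6 to 16.9 in agc1-4. Of its 4 tested genes, LEC1, LEC2 and WOX8 were called higher, but they passed the filter on low counts through the agc1-4 libraries alone, so their number is not read as a result. These 3 genes also carry most of the difference in the sum, with mean levels of 2.11, 0.307 and 0.947 FPKM in WT and 9.69, 1.2 and 2.37 in agc1-4. WOX9 had 2.32 FPKM in WT and 2.09 in agc1-4, and was not called (log2 fold change -0.20, edgeR adjusted p = 0.685). WOX2 was at 0.137 and 0.0667 FPKM and not tested. Sums of seed coat, fruit wall, pollen, and egg cell and synergid markers overlapped between genotypes. Of 9 tested seed coat genes edgeR called 4 higher and 0 lower, DESeq2 2 higher and limma 3, and 6 were higher and 1 lower at an unadjusted p under 0.05. Of 8 tested fruit wall genes YAB3 passed the filter through the WT libraries alone. Among the other 7, edgeR called 0 higher and 2 lower, FUL and RPL, and had 2 higher and 2 lower at an unadjusted p under 0.05, while DESeq2 and limma each called 0 higher and 1 lower. Of 5 tested pollen genes edgeR called 1 higher, DESeq2 1 and limma 2, and 3 were higher at an unadjusted p under 0.05. The 1 tested egg cell gene was not called. Over all genes tested edgeR called 6.55% higher and 7.07% lower, and at an unadjusted p under 0.05 had 12.9% higher and 13.4% lower. DESeq2 called 3.74% of its genes higher and 3.84% lower, and limma 5.58% and 4.71%. The part of these shifts in the levels of AGL40 and PHE2 was not tested.

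Elsewhere in the type I family, AGL91, AGL102 and AGL96 were called higher in agc1-4. Of 48 other type I loci on the list, 17 had 0 counts in all libraries and 12 were tested. AGL91 and AGL102 passed the filter on low counts through the agc1-4 libraries alone, so they are described but not counted. Of the other 10, 1 was called higher and 0 lower, where 6.55% and 7.07% of all genes tested were. Of these 10, edgeR had 2 higher and 0 lower at an unadjusted p under 0.05, beside 12.9% and 13.4% of all genes tested. The 2 were AGL96 and AT3G05860 (log2 fold change 0.59, edgeR adjusted p = 0.0829, not called). Over the whole list, counting AGL91 and AGL102, DESeq2 called 2 higher and limma 4, where 3.74% and 5.58% of their genes were. Both called 0 lower, where 3.84% and 4.71% of their genes were. AGL102 had 0.88, 1.49 and 0.59 FPKM in WT and 3.57, 3.62 and 4.36 in agc1-4, a log2 fold change of 1.87 ± 0.36 (SE, edgeR adjusted p = 0.000529). The genotypes were far apart, and its call held in each of the 17 alternatives. It entered the main test through its high agc1-4 libraries alone, so the call and its stability are not read as support. AGL91, an Mα gene, had 16, 12 and 9 counts in the agc1-4 libraries against 3, 3 and 0 in those of WT (log2 fold change 2.51 ± 0.61, SE, edgeR adjusted p = 0.00512). It did not pass the filter without agc1-4 replicate 1 or 2. AGL96, an Mγ gene, had 12.56, 9.79 and 8.72 FPKM in WT and 13, 15.06 and 15.97 in agc1-4 (log2 fold change 0.50 ± 0.16, SE, edgeR adjusted p = 0.0396). The gap was narrow, and the call was lost in DESeq2 (adjusted p = 0.156) and in 4 of the 6 fits that left out 1 library, those without replicate 2 or 3 of either genotype (adjusted p = 0.103 to 0.148).

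Among type II MADS-box genes, the class of the floral and fruit organ regulators, AP3 was called higher and SEP4 and FUL lower. Of 25 tested, CAL passed the filter through the WT libraries alone. Of the other 24, 1 was called higher and 2 lower, near the 6.55% and 7.07% of all genes tested. Of these 24, 3 were higher and 6 lower at an unadjusted p under 0.05, beside 12.9% and 13.4% of all genes tested. AP3, a petal and stamen identity gene, had a log2 fold change of 0.25 ± 0.06 (SE, edgeR adjusted p = 0.00396). It lost its call in limma on log2(FPKM + 1) without the filter (adjusted p = 0.0537). SEP4 (-0.53, adjusted p = 0.0314) and FUL, a fruit valve regulator (-0.24, adjusted p = 0.0411), were called lower in edgeR, and both lost their calls in DESeq2 and in several fits without 1 library, FUL also in limma (adjusted p = 0.228). Among them SEP4 lost its call without any 1 library except WT replicate 2, and FUL without any 1 except WT replicate 3 and agc1-4 replicate 1.

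**Figure D4:**
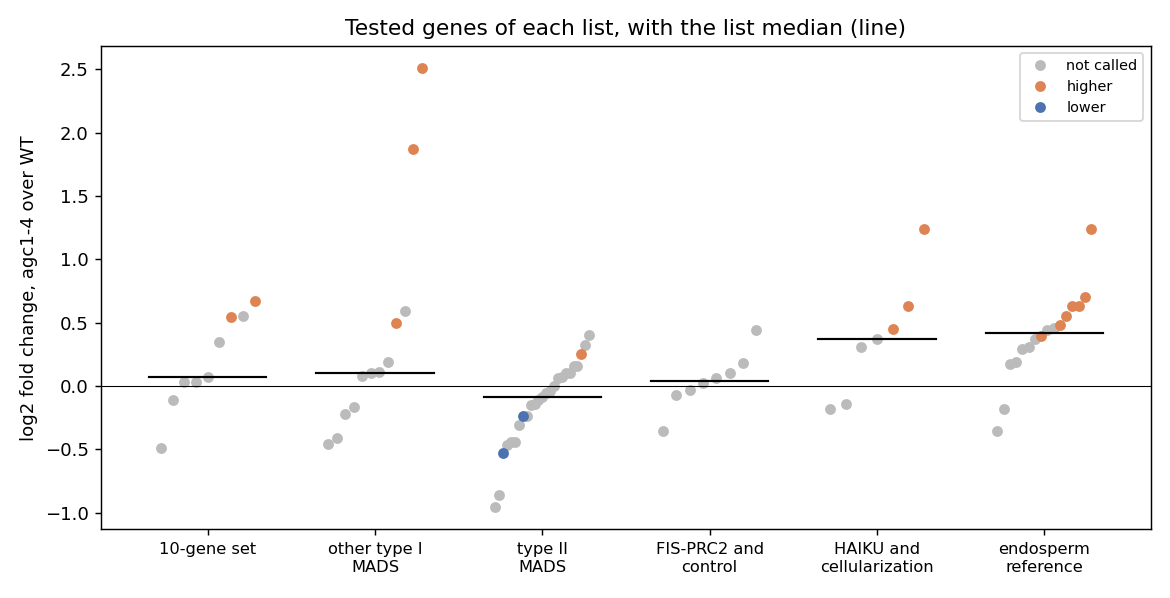
Log2 fold change (agc1-4 over WT, edgeR) of every tested gene in 6 lists (points), coloured by call, with the list median as a line. Among the other type I genes, the highest points are AGL91 and AGL102. The median is 0.07 for the 10-gene set and 0.42 for the endosperm reference, which shares MEA, FIS2, ZOU, ALE1, MINI3 and EDE1 with the lists beside it.

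Genes that act around the type I factors differed in part. The FIS-PRC2 list holds subunits of Polycomb complexes, and DME and MET1, genes that control DNA methylation. Of its 8 genes 0 were called in edgeR, where 6.55% of all genes were called higher and 7.07% lower. At an unadjusted p under 0.05, 1 was higher and 1 lower, beside 12.9% and 13.4% of all genes tested. In DESeq2 and limma 0 of the list were called. MEA, the histone methyltransferase of the complex, had 3.79, 3.70 and 3.34 FPKM in WT and 2.53, 3.03 and 2.95 in agc1-4 (log2 fold change -0.36 ± 0.17, SE, edgeR adjusted p = 0.172). FIS2, its zinc finger partner, had 3.25, 3.99 and 2.44 in WT and 5.23, 4.22 and 3.73 in agc1-4 (0.44 ± 0.17, adjusted p = 0.0867). MEA did not overlap between genotypes and FIS2 did, and neither passed the test.

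In the list for the HAIKU pathway and cellularization 3 of 7 tested genes were called higher and 0 lower, where 6.55% and 7.07% of all genes tested were. At an unadjusted p under 0.05 edgeR had 3 higher and 0 lower, where 12.9% and 13.4% of all genes tested were. DESeq2 and limma called 0 lower, where 3.84% and 4.71% of their genes were. The 3 called were ZOU and its partner ICE1, which drive endosperm breakdown, and ALE1, a subtilase gene of the endosperm next to the embryo. ZOU had 1.51, 1.53 and 1.31 FPKM in WT and 3.45, 2.92 and 4.05 in agc1-4 (log2 fold change 1.24, edgeR adjusted p = 0.00277). ICE1 and ALE1 had log2 fold changes of 0.45 and 0.63 (edgeR adjusted p = 0.00241 and 0.00014). The HAIKU genes IKU1 (-0.14, edgeR adjusted p = 0.37) and MINI3 (0.37, 0.198) were not called, and IKU2 and SHB1 were not tested. EDE1 (0.31, edgeR adjusted p = 0.568) and KN (-0.18, 0.575) were not called either. ZOU and ALE1 are also on the endosperm reference list, so the calls of these lists are not independent. Of 3 tested auxin genes of the fertilised seed, YUC10, TAA1 and ABCB10, 0 were called in edgeR. At an unadjusted p under 0.05, 1 was higher, TAA1, and 0 lower, where 12.9% and 13.4% of all genes tested were. TAA1 passed the filter through the agc1-4 libraries alone, and DESeq2 and limma called 0 of the auxin genes.

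The genes whose profile over the 6 libraries lay closest to that of AGL62 were DAR4, AT4G33740, AT5G48970, MOS2 and AT1G60990. The measure was the root mean square difference of log2(FPKM + 0.1) after centring each gene on its mean, and it was 0.0234 to 0.0326 for these 5, with a median of 0.18 over the 18179 genes compared. The other tested type I genes of the set lay farther off, from 0.181 for AGL28 to 0.473 for AGL35. Closest to the mean profile of the 9 tested genes were AT3G20200, AT1G23040, AT2G03290, AT5G61400 and DELTA-VPE, at 0.0175 to 0.0303. Of these, AT1G23040 (log2 fold change 0.26, edgeR adjusted p = 0.0167) and DELTA-VPE (0.17, edgeR adjusted p = 0.0176) were called higher in agc1-4. The rest, and the genes closest to AGL62, were not called. The points share library and depth, and flat profiles lie near each other by this measure.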

How the data were processed

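Per the file headers, the authors deposited 1 table with estimated counts and FPKM for each of 6 libraries. Aligner, counting tool and library strand are not given in the sources used here. Lengths implied by count and FPKM matched RefSeq transcripts of TAIR10.1 within 2% for 99.2% of 5824 genes with 1 transcript, so that annotation served for gene models and sequences.

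Estimated counts were rounded and tested with edgeR 4.0.16 in R 4.3.3 (TMM, filterByExpr, robust quasi-likelihood F-test, no covariates), with Benjamini-Hochberg adjustment over all 18828 genes tested. The filter removed 8951 rows. The SE is the size of the log2 fold change divided by the square root of F, and 95% intervals use it. Single ratios were tested with exact two-sided permutation tests. A count of 0 allows 3 counts, or 0.254 to 0.376 CPM per library, for counting error only. The fits were tested on simulated data.

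Alternatives were RLE factors, no filter, DESeq2 1.42.0, limma 3.58.1 on log2(FPKM + 1) and on log2(FPKM + 0.1), keeping genes that reached 1 FPKM in 3 libraries, log2(FPKM + 1) without that filter, a replicate block, each library left out, an adjusted p under 0.01, library size from the endosperm reference, and summed copies. Summing AGL36 with AGL90 alone was chosen after seeing the data. The genes and lists were chosen with earlier results of these data known. All 10 genes are named, and of each other list up to 6 called genes by adjusted p, or up to 2 by p where none was called. Not all of these are given in the text, and the auxin genes are named in full. Names of 9 of the 10 loci matched the table or RefSeq; AGL40 came from the locus list.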

Additional observations from a re-analysis of the deposited data

How the results depend on the processing

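AGL40 kept its call in every alternative except library size from the endosperm reference list (log2 fold change 0.02, adjusted p = 0.841). That scaling shifted the median of all genes by -0.52 and called 241 genes higher and 15001 lower, against 1233 and 1331. There 0 of the 9 tested genes were higher and 5 lower, with a median of -0.44, and 6 other type I genes were lower. AGL62 was at -0.63 (adjusted p = 3.63e-05), PHE1 at -0.49, AGL28 at -0.49, AGL36 at -0.44, AGL35 at -0.17, AGL90 at -0.32, AGL96 at -0.02, AP3 at -0.27 and ICE1 at -0.07, all but the first turned in sign. AGL40 alone was higher in DESeq2 and with copies summed (median 0.17, and 0.15 with only PHE1 and PHE2, and AGL36 and AGL90, summed). With 1 library left out, 1 to 2 were higher and 0 lower (median 0.05 to 0.17), and 1 to 3 other type I genes were higher, counting AGL91 and AGL102, which passed the filter through agc1-4 alone. The 1 was without agc1-4 replicate 2, where AGL91 was not tested and AGL96 lost its call (adjusted p = 0.125). In these 6 fits genes near 0 turned in sign: AGL36 (-0.08 to 0.21), AGL28 (-0.06 to 0.15) and PHE1 (-0.06 to 0.11). Over all genes edgeR called 2564, against 1596 in DESeq2, 1578 in limma without the filter and 1688 without agc1-4 replicate 2. The cause of these changes was not tested. Replicate numbers did not pair the samples (correlations of deviations -0.0304 to 0.0338), and the replicate block gave 2 higher and 0 lower (median 0.10). Depth limits AGL61, AGL80, AGL23 and AGL91.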

Other observations

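The protein-coding genes on either side of the 10 genes were also measured. Of 19 such neighbours with a row, 13 were tested, and edgeR called 0 higher and 1 lower, where 6.55% and 7.07% of all genes tested were. At an unadjusted p under 0.05 edgeR had 0 higher and 3 lower, beside 12.9% and 13.4% of all genes tested. DESeq2 and limma each called 0 higher and 1 lower, beside 3.84% and 4.71% of their genes called lower. The other 2 lower at the unadjusted p were ARF4 beside AGL62 (log2 fold change -0.20, edgeR adjusted p = 0.133) and AT1G01540 beside AGL28 (-0.21, edgeR adjusted p = 0.0661). The 1 called, named after its values were seen, was MYB86, a MYB transcription factor gene beside AGL36, at 12.8 FPKM in WT and 8.78 in agc1-4 (log2 fold change -0.55, edgeR adjusted p = 0.00238). Beside AGL40, AT4G36580 had 4.42 FPKM in WT and 4.32 in agc1-4, and beside PHE2, AT1G65295 had 93.5 and 94.6.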
